A study of Mus musculus with 3 samples.

Results

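The Xlr genes of the mouse are a family of X-linked, lymphocyte-regulated genes. The members taken here were Xlr, Xlr3a, Xlr3b, Xlr3c, Xlr4a, Xlr4b, Xlr4c, Xlr5a and Xlr5c, and a probe was assigned to a member where the RefSeq accession in the scanner output belonged to it. Of these 9 genes, 7 had a probe, with 10 probes in all, out of 32524 genes and accessions on the array, 787 of them known to be X-linked. No probe carried an accession of Xlr3c or Xlr4c, so these members have no value.

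The RNA came from primary mouse embryonic fibroblasts of an E10.0 embryo on the C57BL/6J background, and cells of every group were Rb-/-;ATM-/-. The tested cells had received a vector with an shRNA against DNMT1 or a vector for ATM expression, and the controls an empty vector. All were kept in 4 µg/ml puromycin for 3 days and then cultured for 4 more days, and 1-colour (Cy3) Agilent arrays were hybridised with their labelled RNA. There was 1 array for each of the 3 groups, so no difference has a replicate check and no p-value is given. There was no group with intact Rb and ATM, and a vector's effect was seen only in cells that lacked both. In such bulk RNA, more cells expressing a gene and more RNA per cell cannot be told apart.

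XLR proteins are nuclear proteins related to SYCP3, a structural protein of the meiotic chromosome axis, and the founding gene was named for its regulated expression in lymphocytes. In mouse brain, Xlr3b, Xlr4b and Xlr4c are imprinted genes expressed from the maternal X chromosome. DNMT1 copies CpG methylation onto newly made DNA strands, and promoter methylation of this kind keeps many germline genes silent in somatic cells.

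The knockdown was visible in the targeted gene. The Dnmt1 probe read 956 ± 95.7 intensity units (the error is the scanner software's estimate for the spot) on the Dnmt1 shRNA array, 3169 on the array labelled ATM vector and 4908 on the empty-vector array. After scaling to each array's 75th percentile, 21.8% of the empty-vector level was left with the shRNA and 71.1% with the vector labelled ATM. Of 2 Atm probes, 1 read 366, 409 and 430 on the same arrays in the same order and the other was dim on every one, and where these probes lie against the deletion or the vector's insert is not known, so they check neither. A probe is called detected here where the scanner software marked it well above background, and dim otherwise. Detected probes numbered 23476 (59.6%) of 39404 on the Dnmt1 shRNA array, 21659 (55.0%) on the array labelled ATM vector and 21706 (55.1%) on the empty-vector array. The lowest detected signal was 25.1 intensity units with the shRNA, 32.7 with the vector labelled ATM and 37.8 with the empty vector, so the Dnmt1 shRNA array reached lower. The Dnmt1 shRNA and empty-vector arrays lay on slide 1, and the array labelled ATM vector lay alone on slide 2, where slide and group cannot be told apart.

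The cells carried a fibroblast profile. Fibroblast markers were detected for 11 of 11 genes with the shRNA, 11 with the vector labelled ATM and 10 with the empty vector. Xist, the RNA that coats the inactive X chromosome, was dim on the 3 arrays, and the Y-linked genes Ddx3y, Eif2s3y and Uty were detected on all of them, while Kdm5d, also Y-linked, was dim on all. Because Xlr genes are named for lymphocytes, lymphocyte markers were examined beside them. The T cell genes Cd3d, Cd3g, Cd8a and Cd2 and the B cell genes Cd79a, Cd79b, Ms4a1 and Pax5 were dim on every array. Other lymphocyte markers were detected. Cd3e, of the T cell receptor complex, read 593, 772 and 884 units on the Dnmt1 shRNA array, the array labelled ATM vector and the empty-vector array. Cd4, a T cell coreceptor, read 1827, 1409 and 1953, and Lck, a T cell kinase, read 251, 611 and 352. Among B cell markers Cd22 and Vpreb1 were detected on the 3 arrays, Blnk only with the vector labelled ATM (585) and Igll1 only with the empty vector (477). No such marker apart from Thy1 had a pattern like that of the detected Xlr members, high with the shRNA and dim with the empty vector. Of 10 T cell markers, 4, 4 and 3 were detected on the Dnmt1 shRNA array, the array labelled ATM vector and the empty-vector array, with summed signals of 3924, 2887 and 3272. Thy1, also on the fibroblast list, gave 1218, 44.3 and 31.8 of these sums. Of 9 B cell markers, 2, 3 and 3 were detected, with summed signals of 448, 928 and 1054.

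The promoters of the members introduce the family, since the treatment bears on CpG methylation, which the arrays did not measure. Each window below runs from 250 bases before to 50 bases after the annotated start (RefSeq, GRCm38.p6), and capitals mark CG dinucleotides. Windows were found for all 9 members. Xlr (chrX:53797657-53797956, minus strand) and its close relative 3830403N18Rik (chrX:56136322-56136621, plus strand), which the RefSeq table also lists as Xlrl, are shown because the pair was detected on the same arrays. Xlr3b (chrX:73191929-73192228, plus strand) and Xlr3a (chrX:73097046-73097345, minus strand) are shown as copies of 1 subfamily of which only Xlr3b was detected. Xlr4b (chrX:73214083-73214382, plus strand) stands for the Xlr4 genes, and Xlr5a (chrX:73117653-73117952, minus strand) and Xlr5c (chrX:73290466-73290765, minus strand) for members detected on no array.
Xlr: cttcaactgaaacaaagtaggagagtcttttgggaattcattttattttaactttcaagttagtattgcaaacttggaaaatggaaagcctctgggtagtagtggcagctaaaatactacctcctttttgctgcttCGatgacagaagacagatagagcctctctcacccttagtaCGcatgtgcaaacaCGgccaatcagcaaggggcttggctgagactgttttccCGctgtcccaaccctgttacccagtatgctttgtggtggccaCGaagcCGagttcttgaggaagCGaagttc
3830403N18Rik: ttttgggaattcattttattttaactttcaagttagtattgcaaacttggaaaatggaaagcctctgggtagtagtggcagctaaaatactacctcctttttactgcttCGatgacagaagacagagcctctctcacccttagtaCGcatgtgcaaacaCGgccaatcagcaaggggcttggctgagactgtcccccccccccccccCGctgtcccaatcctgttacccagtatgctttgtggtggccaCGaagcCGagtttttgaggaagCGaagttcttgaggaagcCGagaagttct
Xlr3b: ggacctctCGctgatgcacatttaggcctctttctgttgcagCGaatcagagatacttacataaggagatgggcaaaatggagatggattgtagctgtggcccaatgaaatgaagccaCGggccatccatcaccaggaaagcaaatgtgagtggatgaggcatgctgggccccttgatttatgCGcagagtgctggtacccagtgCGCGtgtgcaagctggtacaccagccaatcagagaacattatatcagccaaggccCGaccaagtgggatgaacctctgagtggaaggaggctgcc
Xlr3a: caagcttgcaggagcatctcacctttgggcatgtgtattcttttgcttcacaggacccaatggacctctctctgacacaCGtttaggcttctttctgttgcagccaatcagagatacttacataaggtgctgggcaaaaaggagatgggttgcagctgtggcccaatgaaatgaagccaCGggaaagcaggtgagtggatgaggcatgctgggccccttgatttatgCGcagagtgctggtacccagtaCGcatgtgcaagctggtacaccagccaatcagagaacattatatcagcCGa
Xlr4b: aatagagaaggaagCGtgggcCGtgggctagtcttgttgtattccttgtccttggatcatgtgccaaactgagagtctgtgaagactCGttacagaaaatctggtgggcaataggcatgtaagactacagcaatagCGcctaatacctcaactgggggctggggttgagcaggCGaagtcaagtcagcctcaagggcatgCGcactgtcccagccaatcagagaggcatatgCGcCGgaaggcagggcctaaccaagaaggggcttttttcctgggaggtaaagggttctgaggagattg
Xlr5a: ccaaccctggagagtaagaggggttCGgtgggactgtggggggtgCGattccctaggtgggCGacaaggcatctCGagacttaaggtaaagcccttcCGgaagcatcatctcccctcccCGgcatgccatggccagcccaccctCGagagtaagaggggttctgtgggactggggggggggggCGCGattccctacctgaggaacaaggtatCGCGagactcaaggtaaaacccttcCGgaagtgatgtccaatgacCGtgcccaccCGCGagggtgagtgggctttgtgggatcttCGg
Xlr5c: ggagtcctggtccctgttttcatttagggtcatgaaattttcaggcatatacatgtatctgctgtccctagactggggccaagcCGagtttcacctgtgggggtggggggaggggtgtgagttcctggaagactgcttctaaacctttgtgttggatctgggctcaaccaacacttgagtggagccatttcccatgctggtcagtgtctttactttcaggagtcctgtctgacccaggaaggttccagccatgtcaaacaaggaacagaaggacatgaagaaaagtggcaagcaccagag

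The windows of the detected members lay near the median CG count. Xlr and Xlr3b held 7 CG dinucleotides each, and Xlr4a and Xlr4b 8 each, against a median of 7 (quartiles 3 and 20) over 32851 promoter windows of the same length and a median of 7 over 1223 X-linked ones. The members without a probe, Xlr3c and Xlr4c, held 7 each. Members dim on every array lay on both sides of these counts, with 5 in Xlr3a, 16 in Xlr5a and 1 in Xlr5c. As many or more CG dinucleotides than in Xlr5a were found in 33.0% of all windows, and as many or more than in Xlr in 52.1%.

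A set of 3 short motifs was looked for on both strands: TCCCGC, a core bound by E2F factors, CACGTG, the E-box of several basic helix-loop-helix factors, and TATAAA, the TATA box core. Each was counted on its own, so overlapping hits were possible. The first, TCCCGC, occurred once in the Xlr window and in no other member's window. It was present in 20.0% of all windows of this length. CACGTG, found in 7.15% of all windows, and TATAAA, found in 13.6%, were in no member's window. A match is a description of letters, and no match says only that they are absent from these 300 bases.

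Where bases could be paired, the windows were close copies within the Xlr3 and Xlr4 genes and between Xlr5a and Xlr5b. The share of the window also depends on how many bases could be paired. In pairwise alignments the Xlr4a and Xlr4b windows shared 288 identical bases of 292 paired, and the 3 Xlr4 pairs shared 88.3% to 96.0% of the window. Xlr and 3830403N18Rik shared 263 of 269 paired bases. The 3 Xlr3 pairs shared 69.7% to 88.0%, with 224 of 239 paired bases between Xlr3a and Xlr3b and 264 of 269 between Xlr3b and Xlr3c. Xlr5a and Xlr5b shared 255 of 255 paired bases, or 85.0% of the window, while Xlr5c shared 46.7% with Xlr5a and 55.7% with Xlr5b. Those last values lie at the level found between subfamilies, which was 49.0% to 56.7% for Xlr3 with Xlr4. No probe sequences were used here, so a signal under 1 symbol may include RNA of a near-identical copy, and this cross-hybridisation was not tested.

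**Figure D1:**
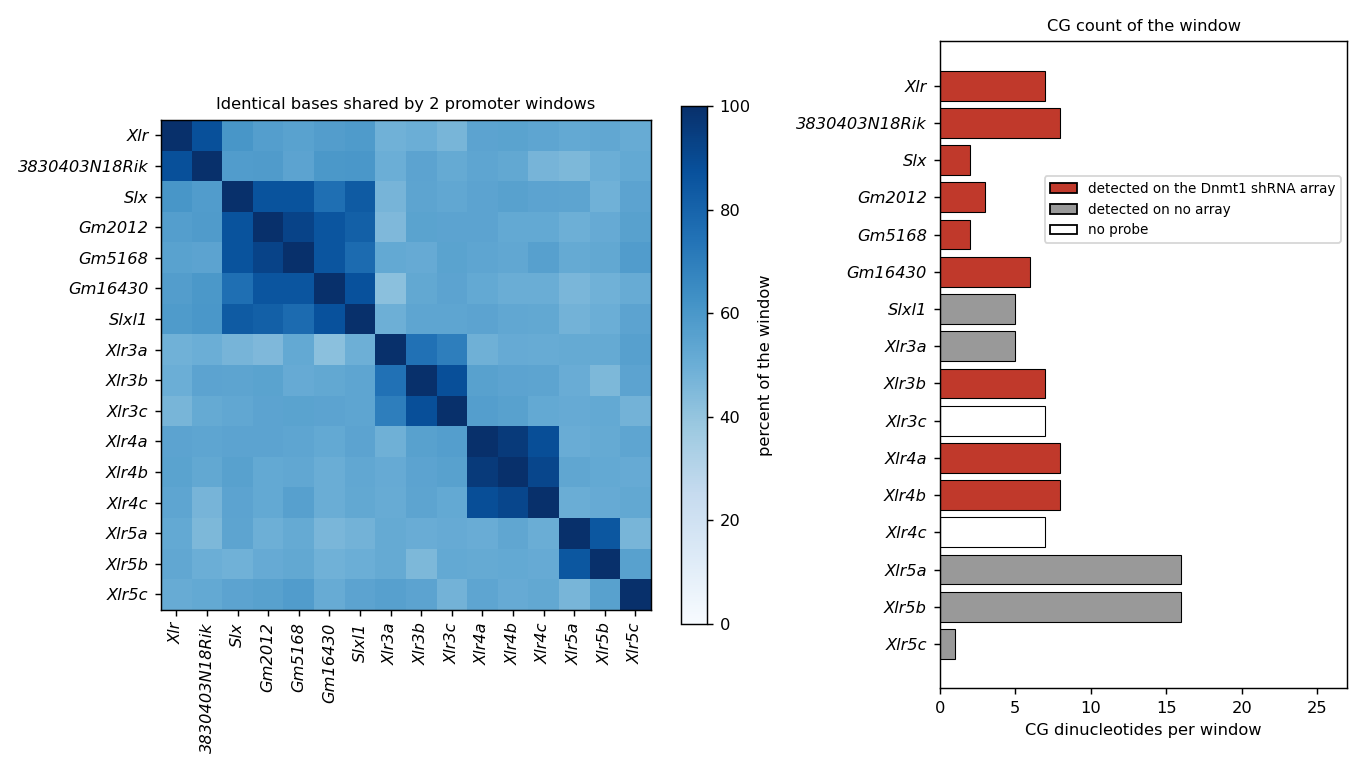
Left, percent of the 300-base promoter window that is identical between each pair of genes (colour scale, 0 to 100). Right, number of CG dinucleotides in each window (bars, from 0), coloured by where the gene was detected. The Xlr4 genes, Xlr with 3830403N18Rik, and the relatives of Slx form dark blocks, and detected genes are not those with the most CG.

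With Dnmt1 knocked down, 4 of the 7 members with a probe were detected, namely Xlr, Xlr3b, Xlr4a and Xlr4b, through 6 of 10 probes. With the vector labelled ATM only Xlr was detected, through 1 probe, and with the empty vector no member was. Of all probes, 59.6% were detected with the shRNA, 55.0% with the vector labelled ATM and 55.1% with the empty vector. The 6 of 10 family probes with the shRNA were thus near the share of all probes. The 1 of 10 with the vector labelled ATM and 0 of 10 with the empty vector lay below it. On every array where they were dim, the probes of these 4 genes read between 6.97 and 17.8 intensity units, under the lowest detected signal. Their ratios are therefore lower bounds, taken against the lowest detected signal of the dim array.

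Xlr, the founding gene, read 555 ± 55.8 intensity units on the Dnmt1 shRNA array, 62.4 ± 10.1 on the array labelled ATM vector and 7.88 ± 7.84 on the empty-vector array, with the scanner's error of 1 spot. It was thus far above detection with the shRNA, at 22.2 times the lowest detected signal, nearer to it with the vector labelled ATM, at 1.91 times, and dim with the empty vector. Before the software's correction the same order held, with 588, 74 and 18 units left after local background was subtracted. Relative to the empty-vector array, Xlr was at least 16.5-fold higher with the shRNA (log2 4.04). The size of such a bound depends on the level taken as detected: for Xlr it was log2 3.41 with the 5th percentile of detected signals in place of the lowest, 3.21 with normexp background correction, and 6.31 with the dim signal as measured.

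In the Xlr3 subfamily, 2 probes for Xlr3b were detected on the same array. Probe A_55_P1959683 read 315 ± 31.9 with the shRNA, 7.49 with the vector labelled ATM and 17.8 with the empty vector. Probe A_55_P1965101 read 715 ± 71.8, 9.47 and 10.2 on the same arrays. Both were detected only on the Dnmt1 shRNA array. They gave at least 9.34-fold and at least 21.2-fold higher signals than with the empty vector, and Xlr3b as their mean was at least 14.1-fold higher (log2 3.82). The 2 bounds were log2 3.22 and 4.41. Each follows its probe's brightness on the Dnmt1 shRNA array, so their difference does not show whether the ratios differ. The pooled SD between probes of 1 gene, 0.21 over 3261 genes, came from probes detected on both arrays and does not apply to bounds. Over the alternatives the values of the 2 probes ran from 2.15 to 4.31 and from 3.29 to 6.29. The Xlr3a probe read 26.1 ± 6.15 with the shRNA, 8.51 with the vector labelled ATM and 8.95 with the empty vector. The shRNA value was 1.04 times the lowest detected signal of its array, but the software did not mark this spot well above its own background, so Xlr3a counts as dim and has no ratio.

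In the Xlr4 subfamily, the probes of Xlr4a read 100.1 ± 11.5 (A_55_P2124582) and 350.4 ± 35.4 (A_55_P2124586) with the shRNA. On the array labelled ATM vector they read 8.53 and 6.97, and on the empty-vector array 9.31 and 7.71. Both were detected only with the shRNA, and their bounds were at least 2.97-fold and at least 10.4-fold. Xlr4a as their mean was at least 5.56-fold higher (log2 2.47). Here too the bounds follow each probe's brightness and do not show whether the ratios differ. Over the alternatives the values of the 2 probes ran from log2 0.93 to 3.59 and from 2.69 to 5.67. Xlr4b, imprinted in mouse brain, read 348 ± 35.2 with the shRNA, 7.89 with the vector labelled ATM and 7.79 with the empty vector. It was at least 10.3-fold higher with the shRNA than with the empty vector (log2 3.37, and 2.62 to 5.65 over the alternatives).

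The Xlr5 genes stayed dim. Xlr5a read 13.98 ± 5.49 with the shRNA, 7.75 with the vector labelled ATM and 8.46 with the empty vector. The 2 probes of Xlr5c read 5.09 each with the shRNA, 7.11 and 7.12 with the vector labelled ATM, and 7.82 and 7.71 with the empty vector. All of these signals were dim, so they have no order, and Xlr5 expression was not detectable at this depth of signal. Xlr5b, a paralogue outside the 9 members, was dim on all 3 arrays as well.

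**Figure D2:**
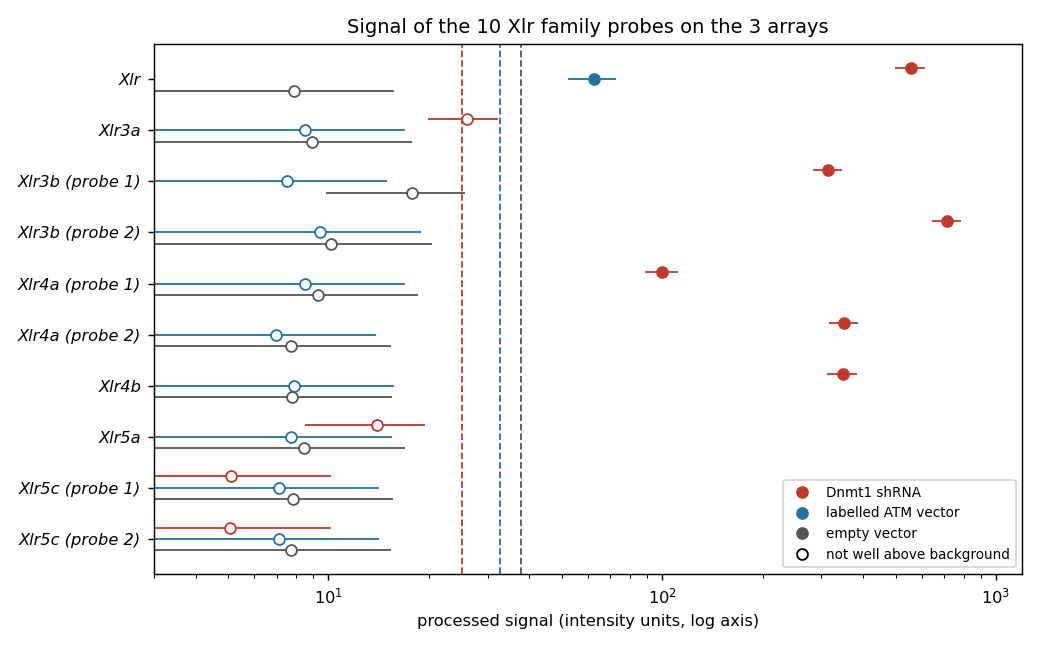
Processed signal (x axis, intensity units, log scale) of each of the 10 Xlr family probes on the Dnmt1 shRNA array, the array labelled ATM vector and the empty-vector array. Bars are the scanner's error and are clipped at the axis edge, dashed lines are the lowest detected signal of each array, and open symbols are dim. Filled red points for Xlr, Xlr3b, Xlr4a and Xlr4b lie between 100.1 and 715, and the only other filled point is Xlr at 62.4 on the array labelled ATM vector.

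Counted over the family, 4 of 7 members were at least 2-fold higher with the shRNA than with the empty vector, where 2.75% of all 32524 genes with a probe, 4.61% of the 19359 with a ratio and 7.12% of the 787 X-linked ones were. No member was at least 2-fold lower, where 1.04% of all genes were. Being detected with the shRNA and dim with the empty vector held for the same 4 members, against 5.5% of all genes and 10.3% of X-linked genes. The median log2 bound of the 4 members with a ratio was 3.59, and the median over the 19359 genes counted was -0.011. The members with a ratio are those detected on at least 1 of the 2 arrays, and as none was detected with the empty vector, each ratio could only be at or above 0. By subfamily, Xlr, 1 of 2 Xlr3 members and both Xlr4 members with a probe were among the higher genes, and neither Xlr5 member was. Probes of near-identical copies such as Xlr4a and Xlr4b may read the same RNA. Whether the 4 members stand for 4 separate RNAs was not tested.

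With the vector labelled ATM, 0 of 7 members were at least 2-fold higher than with the empty vector, against 3.88% of all genes and 6.48% of X-linked genes, and 0 were at least 2-fold lower, against 3.54%. As no member was detected with the empty vector, none could have been counted as lower. The single member with a ratio was Xlr, at least 1.82-fold higher (log2 0.86, and 0.22 to 3.12 over the alternatives), from 62.4 ± 10.1 units on the array labelled ATM vector against a dim signal on the empty-vector array. Its detection there while dim with the empty vector was shared by 2.74% of all genes. The median ratio over all genes counted was 0.053 on the log2 scale, and 0.29 over the X-linked ones. The other 9 probes were dim on both arrays, and no direction can be given for them. Both comparisons share the empty-vector array.

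**Figure D3:**
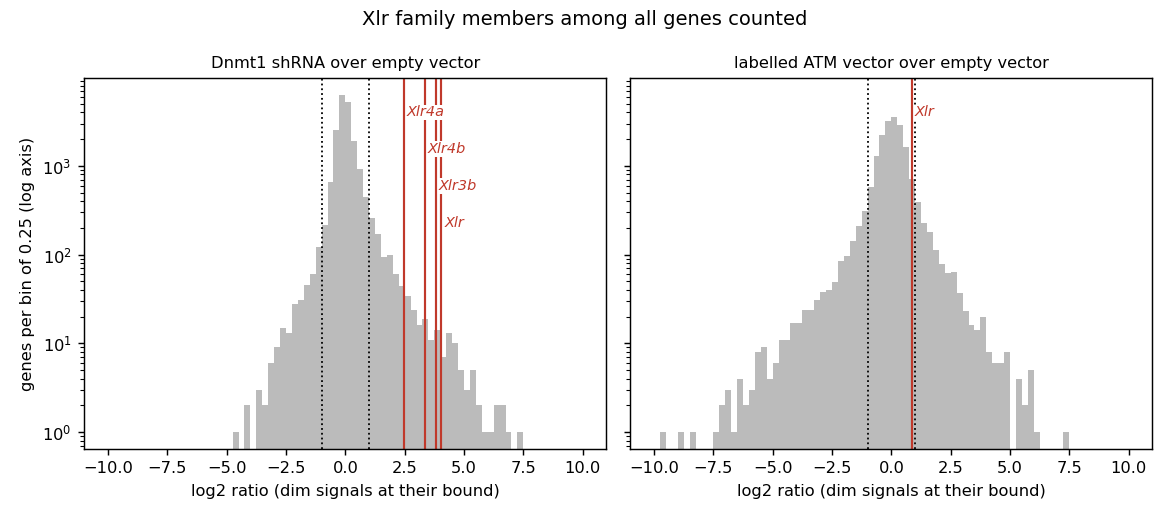
Number of genes (y axis, log scale) per bin of log2 ratio over the empty-vector array (x axis, dim signals at their bound), for the Dnmt1 shRNA array on the left and the array labelled ATM vector on the right. Red lines are members and dotted lines a 2-fold difference. Xlr4a, Xlr4b, Xlr3b and Xlr lie from 2.47 to 4.04 on the left, and Xlr lies at 0.86, inside the dotted line, on the right.

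Genes along the chromosome showed whether whole neighbourhoods moved. Xlr lies apart from the other members. Of the 10 genes nearest to it in RefSeq order that have a probe, 7 were detected with the shRNA, 7 with the vector labelled ATM and 5 with the empty vector. Only Gm16430 and 3830403N18Rik were at least 2-fold higher with the shRNA, none was lower, and the median log2 ratio of the 7 with a ratio was 0.26. Rtl8a, Rtl8b and Rtl8c, which derive from a retrotransposon gag gene, and the zinc finger genes Zfp36l3 and Zfp449 were detected on all arrays and lay between -0.22 and 0.46. Ct55, Slxl1 and Gm773 were dim on all arrays.

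The other 8 members form 1 cluster. Of the 20 genes with a probe that flank it, 11 were detected with the shRNA, 9 with the vector labelled ATM and 9 with the empty vector. Only Pnma5 and Zfp185 were at least 2-fold higher with the shRNA. Pnma5, a paraneoplastic antigen family gene, read 294 units with the shRNA, 28.6 with the vector labelled ATM and 9.01 with the empty vector, at least 8.74-fold higher with the shRNA than with the empty vector. Zfp185, which encodes a LIM domain protein, read 157, 7.43 and 80.4 and was 2.18-fold higher with the shRNA, measured on both arrays. With the vector labelled ATM it was at least 2.24-fold lower, and Dusp9, a phosphatase gene that read 148 units there against a dim 23.1 with the empty vector, was at least 4.31-fold higher. The flanking genes that had a ratio ranged from -0.46 to 3.13 (log2) with the shRNA, with a median of 0.18. Cetn2, a centrin, Nsdhl, a sterol enzyme, Bgn, a matrix proteoglycan, and Bcap31, an endoplasmic reticulum protein, were detected on all 3 arrays and lay between -0.46 and 0.39. Inside the cluster, DXBay18, Xlr5b and F8a, which lie between members and were added after the values were seen, were dim on all 3 arrays.

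**Figure D4:**
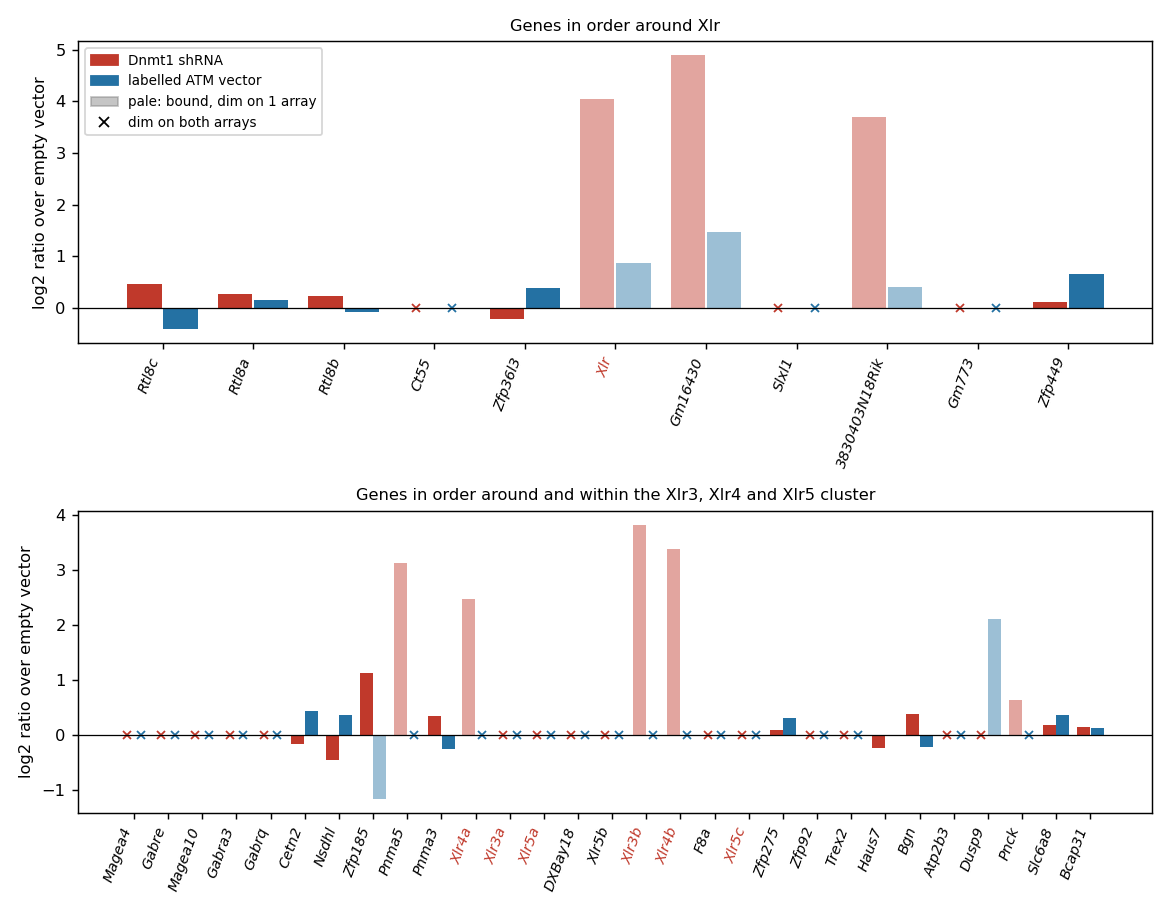
Log2 ratio over the empty-vector array (y axis) of genes in chromosome order (x axis, members in red) around Xlr, above, and around the Xlr3, Xlr4 and Xlr5 cluster, below, with the Dnmt1 shRNA and with the vector labelled ATM. Pale bars are bounds and crosses mark genes dim on both arrays. The tall bars above 2 with the shRNA are Xlr, Gm16430, 3830403N18Rik, Pnma5, Xlr4a, Xlr3b and Xlr4b.

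The SYCP3-related genes outside the family were measured in the same way. Of 9 listed, 5 had a probe, and 3, 1 and 0 were detected on the Dnmt1 shRNA array, the array labelled ATM vector and the empty-vector array. Slx, an X-linked spermatid gene, read 790 units with the shRNA, 109.7 with the vector labelled ATM and 8.61 with the empty vector, so it was at least 23.4-fold and at least 3.19-fold higher with these vectors than with the empty one. Sly, its Y-linked relative, read 309 with the shRNA, 13.5 with the vector labelled ATM and 24.0 with the empty vector. It was at least 9.17-fold higher with the shRNA, a bound that rests on this brightest probe, 1 of 5 for the gene. Sycp3 itself, on chromosome 10, read 79.4, 34.0 and 16.7 and was at least 2.36-fold higher with the shRNA. Slxl1 was dim on all 3 arrays. All 3 with a ratio in the shRNA comparison were at least 2-fold higher, where 2.75% of all genes with a probe and 4.61% of those with a ratio were. Each was detected with the shRNA and dim with the empty vector, as were 5.5% of all genes. Being dim with the empty vector, none of the 3 could have been counted as lower.

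Genes whose levels over the 3 arrays lay nearest to a member were found by Euclidean distance between log2 signals centred on each gene's mean, among genes detected on the same arrays. With 3 arrays this is a description, and where genes are dim it compares surrogate values. For Xlr the 5 nearest of 270 genes were Gm16430 (distance 0.25), 3830403N18Rik (0.33), Slx (0.49), Gm2012 (0.76) and Gm5168 (0.80), all X-linked. 3830403N18Rik read 435 ± 43.8 units with the shRNA, 45.4 ± 9.05 with the vector labelled ATM and 7.84 with the empty vector, at least 12.9-fold and at least 1.32-fold higher with these vectors than with the empty one. Gm16430 read 1169, 112.4 and 15.8, and was at least 29.9-fold and at least 2.77-fold higher. Like Xlr, these genes were detected with the shRNA and with the vector labelled ATM and dim with the empty vector, a pattern of 1.42% of all genes and 2.16% of X-linked genes.

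The windows of Gm16430, Slx, Slxl1, Gm2012 and Gm5168 shared 75.7% to 92.3% of bases with each other and 54.3% to 60.3% with Xlr and 3830403N18Rik, so the nearest genes to Xlr fall into 2 sets of promoter copies. The Slxl1 window shared 262 of 265 paired bases with that of Gm16430, yet the Slxl1 probe was dim on all arrays. For Xlr3b the nearest of 767 genes were Dpt, Rps4l, Tex13b, Rhox4a and Slc28a2, at 0.39 to 0.48. For Xlr4a they were Nkx2-9, 3830417A13Rik, Csta2, Nxf3 and Pkd1l2, at 0.058 to 0.10, and for Xlr4b Slc28a2, Palmd, Gm364, Tex13b and Mst1, at 0.19 to 0.34. For each of these 3 members 2 of the 5 nearest genes were X-linked. Xlr3b, Xlr4a and Xlr4b were detected with the shRNA alone, a pattern of 4.08% of all genes and 8.13% of X-linked genes.

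**Figure D5:**
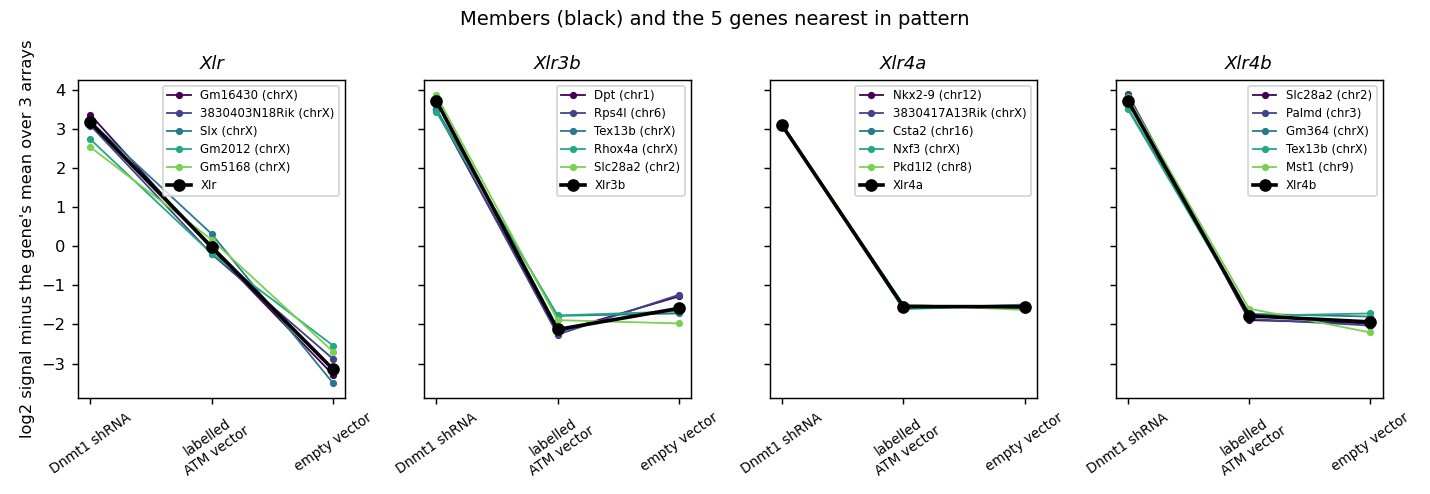
Log2 signal of each detected member (black) and its 5 nearest genes, centred on the gene's mean over the 3 arrays (y axis), on the Dnmt1 shRNA array, the array labelled ATM vector and the empty-vector array. Xlr and its 5 X-linked neighbours in pattern step down over the arrays, while Xlr3b, Xlr4a and Xlr4b are high on the Dnmt1 shRNA array alone.

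Other gene groups give the setting of the family, beside the 2.75% of all genes higher and 1.04% lower with the shRNA. The lists were chosen with earlier results of these data known. A gene dim with the empty vector has a ratio only if detected with the other vector, and that ratio cannot be below 0. This rule partly sets the medians and the counts of lower genes below. Of 20 Rhox genes with a probe, an X-linked homeobox family of reproductive tissues, 15, 4 and 5 were detected with the shRNA, the vector labelled ATM and the empty vector, and with the shRNA 8 were higher by at least 2-fold and 0 lower (median log2 1.91 over 15). Of 39 genes with a probe on the list of X-linked germline genes, 14, 6 and 4 were detected, 6 were higher and 0 lower. Tex13b was at least 8.83-fold, Nxf3 at least 5.63-fold, Luzp4 at least 3.49-fold and Magea1 at least 3.44-fold higher. This list also held Zfy1, which is Y-linked, and Rhox13 and Slxl1, which are counted in other lists too. All of these were dim on every array. Of 29 autosomal germline genes 12 were higher and 0 lower, with Tex19.1 at least 70.1-fold higher. Imprinted genes of other chromosomes, the class that Xlr3b and Xlr4b join in brain, gave 3 higher and 0 lower of 29 with the shRNA, and 5 higher and 3 lower with the vector labelled ATM, where the lower ones included Zrsr1 (at least 44.6-fold) and the Notch-like ligand Dlk1 (at least 14.2-fold). Of 17 genes of the methylation machinery, only Dnmt1 was at least 2-fold lower and 0 were higher with the shRNA. With the vector labelled ATM, the counts higher and lower were 0 and 1 for Rhox genes, 1 and 0 for X-linked germline genes, 0 and 0 for autosomal germline genes and 0 and 0 for the methylation machinery.

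Markers of other cell types also differed between the arrays. Of 7 epithelial markers, 6, 3 and 3 were detected with the shRNA, the vector labelled ATM and the empty vector, with summed signals of 2704, 4694 and 265, of which Krt14 gave 296, 4491 and 78.3. Krt18 and Krt8, 2 keratins, were at least 39.8-fold and at least 22.0-fold higher with the shRNA. Of 9 germ cell markers, 5, 4 and 3 were detected, with summed signals of 1517, 1408 and 1289. Dazl, Ddx4, Dppa3 and Pou5f1 were dim on every array. Nanos3 (872, 867 and 889 units on the same arrays) and Prdm1 (122, 155 and 140) were detected on all of them. Dnd1, an RNA-binding protein of germ cells, was 2.39-fold higher and Sycp3 at least 2.36-fold higher with the shRNA, and Kit, a receptor of germ and blood cells, was at least 6.41-fold higher with the vector labelled ATM. Of 9 blood and macrophage markers, 4, 5 and 4 were detected, with summed signals of 15455, 14698 and 12824, and Hba-a1 and Hbb-bh1, globins of red cells, were at least 58.8-fold and at least 59.7-fold higher with the vector labelled ATM. The part of these cells in the Xlr results was not tested.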

How the data were processed

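Scanner output of 3 arrays was deposited by the authors, and the submitters' processing notes name Agilent Feature Extraction 10.7.3.1. These signals are intensity values after background subtraction, with a surrogate value for the dimmest spots, per the file headers. The deposited series matrix held the same intensity values within 0.495%.

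Control and outlier spots (235, 167 and 228 on the Dnmt1 shRNA, labelled ATM vector and empty-vector arrays) were removed, and no spot was saturated. Log2 signals were averaged over the spots of a probe, and each array was centred on its 75th percentile. In repeated spots with signals of 50 to 1000 the median SD was 0.064, 0.076 and 0.064 (log2) on the same arrays. A probe counted if detected on at least 1 of the 2 arrays compared. Where it was dim on 1, its ratio used the higher of its own signal and the lowest detected signal there. A gene is the mean of its counted probes, and differences of at least 2-fold were counted. With 1 array per group, no test was run, and precision is limited by the number of arrays.

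Of 39404 probes, 26397 had 1 symbol through a RefSeq table of GRCm38.p6 and 13007 had none, while the array was designed on another build. Named genes are the members, Dnmt1, Atm, the nearest 5 or 10 genes on each side, up to 4 genes of each list with the largest difference, marker genes, and the 5 nearest in pattern; a few of these are not reported here. Members and lists were chosen with earlier results of these data known. Promoter windows were aligned end to end with free end gaps (match 5, mismatch -4). The steps were tested on simulated data in which the raised genes were drawn from those detected with the empty vector. Bounds against a dim empty-vector signal, as for every Xlr ratio, were thus not tested. Alternatives changed background correction, scaling, dim probes, outlier spots and the source of values. Normexp, planned on mean signals, used median signals, the column in the files. Python 3.11.15, R 4.3.3 and limma 3.58.1 were used.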

Additional observations from a re-analysis of the deposited data

How the results depend on the processing

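In the shRNA comparison, 4 members were higher under every alternative that gave a value except no filter on dim probes, under which 5 were, with Xlr3a added. Under the same alternatives 0 were lower, and no result reversed. Where bounds were used, no member's ratio could fall below 0. Only dim signals as measured and no filter on dim probes could therefore have shown a lower member or a reversal. The members' median log2 ratio in the shRNA comparison, 3.59 as reported, was 3.35 with arrays scaled to their median and 2.67 with normexp. It was 2.95 with the detection level at the 5th percentile of detected signals and 5.48 with dim signals as measured. With no filter on dim probes it was 4.63, over all 7 members with a probe rather than the 4 with a ratio. In the comparison of the vector labelled ATM with the empty vector, the median of 0.86 was the value of Xlr alone. It was 0.22 with the 5th percentile and 3.12 with dim signals as measured. With no filter the median was 0.011, but over all 7 members with a probe, while Xlr itself was at 3.12. The number higher was 1 rather than 0 with dim signals as measured and with no filter. Apart from median scaling and normexp, these settings differ only in how dim signals enter; for those 2 the cause was not tested. The weaker Xlr4a probe was under 2-fold (log2 0.93) at its lowest. Normexp on median signals and the 5th percentile were added after seeing the data. Scaling by the median moved the median of all genes in the shRNA comparison to -0.25, against -0.011. All genes higher and lower numbered 893 and 339 as reported, 648 and 536 with median scaling, 728 and 485 with quantile normalization, 571 and 86 with normexp, 1486 and 432 with dim signals as measured, 1965 and 1139 with no filter, and 558 and 154 for probes detected on both arrays. With the vector labelled ATM, 1262 and 1152 became 876 and 767 with normexp, 2229 and 2150 with no filter, and 931 and 702 for probes detected on both. That last setting gave no member a ratio, since none was detected with the empty vector. A slide block could not be fitted with 1 array per group. No paired analysis was possible because each group had 1 array. Signal over background limits the Xlr5 genes and Xlr3a, whose levels are bounds on every array.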

Other observations

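Signals of further X-linked genes detected on the same arrays as Xlr were as follows. Gm2012 read 846 units with the shRNA, 114 with the vector labelled ATM and 24.7 with the empty vector, and Gm5168 read 428, 84.7 and 12.9 on the same arrays. Gm5935 and Gm10487, chosen after their values were seen, were at least 8.27-fold and at least 3.76-fold higher with the shRNA than with the empty vector, and at least 3.01-fold and at least 2.68-fold higher with the vector labelled ATM.

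Detected on both of these arrays and dim with the empty vector were 17 X-linked genes. Among them, Heph, a ferroxidase, and L1cam, a neural adhesion molecule, were at least 25.7-fold and at least 7.17-fold higher with the vector labelled ATM, while their signals with the shRNA did not exceed the detection level of the empty-vector array. Both were chosen after their values were seen. Among named genes, X-linked ones made up 64 of 770 (8.31%) of those detected with the shRNA alone, 17 of 271 (6.27%) of those detected with both vectors, and 787 of 20013 (3.93%) of all.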
